A study of Mus musculus with 12 samples.

Results

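The SLC25 genes encode the mitochondrial carriers, the family of membrane proteins that move metabolites, nucleotides, cofactors and ions across the inner mitochondrial membrane. Their mRNA was followed in white adipose tissue of mice after feeding of CLA or of LA. Members were all genes whose symbol in the platform annotation is Slc25a followed by a number, apart from 1 symbol that was left out. The annotation held 43 such genes on 92 probe sets that carry a single gene symbol. Genes with a scaled intensity of 100 or more on 2 or more of the 12 arrays were kept, which left 38 of the 43 genes among 12627 genes tested, and each gene was followed through its probe set with the highest mean.

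The groups were white fat of CLA-fed mice at 4, 12 and 24 h and, as controls, white fat of LA-fed mice at the same hours. CLA usually stands for conjugated linoleic acid and LA for linoleic acid, though the labels spell out neither, and they name the fat pad only as RP. Each of the 6 groups had 2 Affymetrix arrays. Every array was hybridised with RNA of a pool of 5 mice, 60 mice in all, and pools rather than mice were the replicates. The labels give no strain, age, sex or dose for these groups, and do not say from which moment the hours were counted. In pooled whole tissue, fewer cells of a type and less RNA per cell cannot be told apart.

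Mitochondrial carriers share a fold of repeated membrane-spanning segments, are encoded in the nucleus and are imported into the inner membrane after synthesis in the cytosol. The ADP/ATP and phosphate carriers feed ATP synthase and export the ATP it makes. The dicarboxylate and oxoglutarate carriers connect the citric acid cycle with the cytosol, and the carnitine carrier brings fatty acyl groups in for oxidation. In white fat, carriers that export carbon and reducing power serve fatty acid synthesis, and brown fat holds many more mitochondria per cell than white fat.

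On each array, 44.7% to 49.8% of probe sets reached 100, and correlations between arrays ran from 0.862 to 0.966 across genes, so no array repeated another. The CLA pools at 4 h differed most from each other, by 0.53 log2 on average over all genes and by 0.48 over the SLC25 genes, against 0.34 to 0.42 and 0.29 to 0.35 in the other 5 groups. The 18S rRNA control probe set read -69.3 in replicate 1 of the CLA pools at 4 h and between 191 and 982 on the other 11 arrays. For Actb, the 3' over 5' signal, a sign of RNA length, was 3.80 to 6.41 in the 12 h pools and 2.35 to 4.13 in those of 4 and 24 h. Within each of the 6 groups this signal was higher in replicate 2 than in replicate 1. The summed scaled intensity of 8 adipocyte markers was 163316 to 348385 in CLA pools and 217273 to 274840 in LA pools. With no other tissue on these arrays, such a sum cannot check the label of fat. Intensities of different probe sets were not read as relative amounts of RNA, since a probe set's brightness depends on its own probes. A sum over probe sets follows its brightest ones most.

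At 24 h, 12 of the 38 carriers passed an adjusted p of 0.05, 4 of them higher and 8 lower with CLA. This was 31.6% of the carriers, beside 21.5% of all genes tested. In the 2 directions it was 10.5% higher and 21.1% lower, beside 10.6% and 10.9% of all genes. An unadjusted p under 0.05 was met by 13 carriers (34.2%), beside 35% of all genes. The CLA pools were both above or both below both LA pools for 27 carriers (71.1%), beside 64.7% of all genes. The median log2 change of the carriers was -0.23, beside 0.02 over all genes, with 13 carriers above 0 and 25 below. With 1 common factor for all arrays in place of scaling each array, 37 carriers were kept, and 4 passed higher and 4 lower. Of the 12599 genes then tested, 1270 passed higher and 507 lower. The median was -0.00 for the carriers beside 0.23 over all genes. Quantile normalization gave 12 carriers as well, beside 2817 of 12627 genes, with Slc25a48 in place of Slc25a5. A log2 change here is CLA minus LA on log2 of the scaled intensity plus 16.

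**Figure D1:**
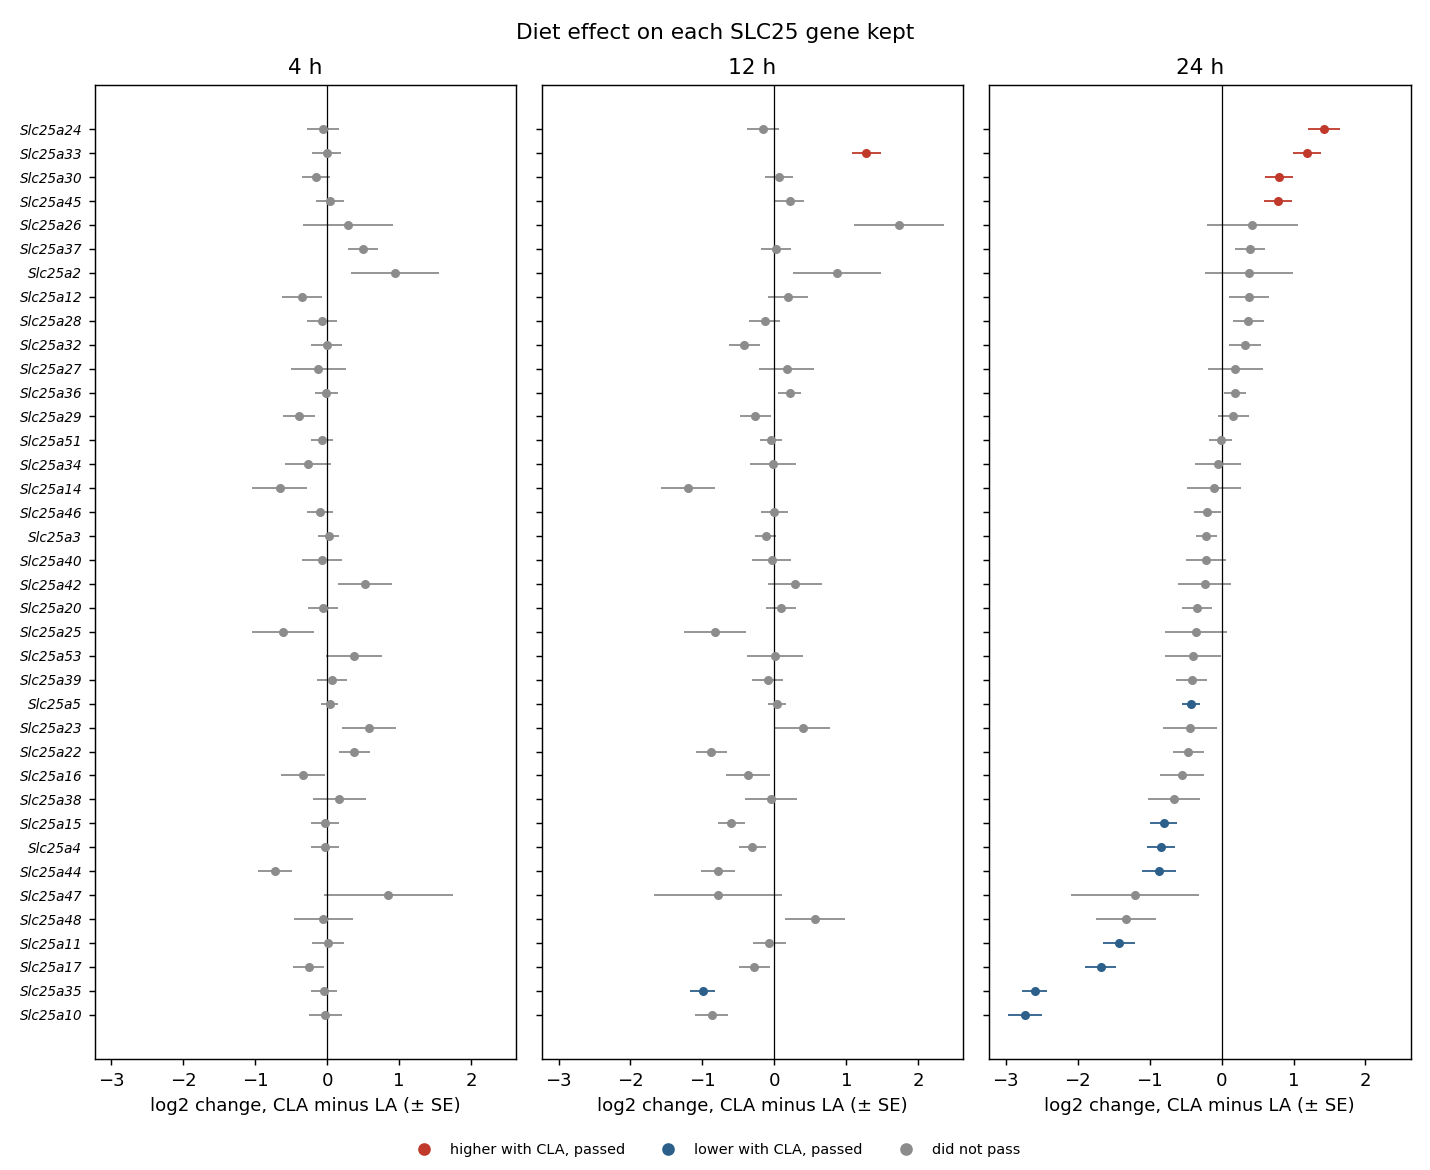
Log2 change, CLA minus LA, with its standard error (x axis) of each of the 38 SLC25 genes (rows, ordered by the 24 h value) at 4, 12 and 24 h. Coloured points passed an adjusted p of 0.05, which 0 genes did at 4 h, 2 at 12 h and 12 at 24 h, with values from -2.73 to 1.42 at 24 h.

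Of the 3 carriers of dicarboxylates and acylcarnitines that were kept, 2 fell at 24 h and 1 did not pass. Slc25a10, the dicarboxylate carrier, exchanges malate and succinate for phosphate. Its scaled intensity at 24 h was 1396 and 1190.2 in CLA fat, against 7114 and 10541 in LA fat. Both CLA pools were far below both LA pools, and the CLA pools at 24 h were also the lowest of all 12 arrays. The log2 change was -2.73 ± 0.23 (SE, n = 2 pools in each group, adjusted p 0.000405), a 6.65-fold lower level with CLA. At 12 h the CLA pools read 4899 and 5026, against 9186 and 8995 in LA fat. They did not overlap, but the log2 change of -0.87 ± 0.23 had an adjusted p of 0.0817. The diets overlapped at 4 h, with 7618 and 8541 in CLA fat and 9748 and 6931 in LA fat, and the log2 change was -0.03. In the LA pools Slc25a10 stayed between 6931 and 10541 at all hours.

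Slc25a11, the oxoglutarate carrier, exchanges oxoglutarate for malate and is a part of the malate-aspartate shuttle. At 24 h its scaled intensity was 680.0 and 811 in CLA fat and 1942 and 2114 in LA fat, with no overlap. The log2 change was -1.43 ± 0.23 (adjusted p 0.00413), or 2.69-fold lower with CLA. Its diets overlapped at both earlier hours. The CLA pools read 2730.2 and 1787 at 4 h and 1511 and 1301 at 12 h, against LA pools at 2230.5 and 2155 and at 1648 and 1313. The log2 changes were 0.01 and -0.07.

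Slc25a20, the carnitine/acylcarnitine carrier that takes fatty acyl groups into mitochondria for oxidation, did not pass at any hour. At 24 h the CLA pools read 5091 and 5677 and the LA pools 7048 and 6637. The pools did not overlap, and the log2 change was -0.35 ± 0.21 with an adjusted p of 0.276. With the mean over its kept probe sets in place of the brightest one, the change was -0.52 with an adjusted p of 0.0481. Its second kept probe set alone had -0.69 (adjusted p 0.0187 by limma over 22057 probe sets). Earlier, at 4 h, the CLA pools read 5462 and 7940.0 against 6343 and 7385 in LA fat, and at 12 h 7616 and 9440.0 against 7911 and 8038.

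Slc25a17, a carrier of the peroxisomal rather than the mitochondrial membrane that transports CoA, FAD and NAD, also fell. At 24 h it read 382 and 357 in CLA fat, against 1326 and 1116 in LA fat. No CLA pool came near the LA range. Its log2 change was -1.68 ± 0.21 (adjusted p 0.00182), or 3.20-fold lower with CLA. At 4 h the CLA pools read 1367 and 1495 against 1898 and 1539 in LA fat, with a log2 change of -0.26. At 12 h the CLA pools read 944 and 805 and the LA pools 1284 and 877, with overlap and a log2 change of -0.28.

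Slc25a35 was the other carrier with a fall of the size seen for Slc25a10. At 24 h it read 386 and 354 in CLA fat, against 2226 and 2425 in LA fat, and its log2 change was -2.60 ± 0.18 (adjusted p 0.000199), or 6.06-fold lower. It was already lower at 12 h, with 981 and 892 in CLA fat against 1669.8 and 2122 in LA fat. The pools of 12 h did not overlap, and the log2 change there was -0.996 ± 0.18 (adjusted p 0.0214), or 1.99-fold lower. Its CLA pools at 4 h read 2279.9 and 1818, on either side of the LA pools at 2075 and 2122. The 12 h call was lost without any 1 of the 4 arrays of that hour, with adjusted p-values up to 0.145.

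Among the nucleotide and phosphate carriers, 8 were kept, and at 24 h 2 rose, 2 fell and 4 did not pass. Slc25a24, a calcium-regulated carrier that exchanges ATP-Mg for phosphate and so sets the adenine nucleotide content of the matrix, rose at 24 h. Its CLA pools read 3415 and 3375, against 1440.3 and 1093 in LA fat. Both CLA arrays of 24 h exceeded the other 10 arrays, which lay between 909.7 and 1602. The log2 change was 1.42 ± 0.22 (adjusted p 0.00391), or 2.68-fold higher. At 12 h its CLA pools read 1402 and 1293 against 1400.4 and 1602 in LA fat, and at 4 h 909.7 and 1381 against 1214 and 1120.5. The pools overlapped at both hours, and the log2 changes were -0.15 and -0.06.

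Slc25a33, a pyrimidine nucleotide carrier, was higher with CLA at 12 and 24 h. At 12 h it read 2937 and 3176 in CLA fat, against 1094 and 1424 in LA fat. The log2 change was 1.28 ± 0.20 (adjusted p 0.0152), or 2.43-fold. At 24 h it read 2058 and 2236 in CLA fat, against 888 and 981 in LA fat, with a log2 change of 1.19 ± 0.20 (adjusted p 0.00518) and a 2.28-fold difference. Neither hour had any overlap between the diets. The CLA pools of 4 h at 1313 and 1723 enclosed the LA pools at 1375 and 1665. The 12 h call was lost without any 1 of the 4 arrays of that hour, with adjusted p-values up to 0.0860. It was also lost with 1 common factor for all arrays, where the adjusted p was 0.0614. Slc25a36, the other pyrimidine nucleotide carrier, did not pass at 24 h, with a log2 change of 0.19 ± 0.16 (adjusted p 0.442).

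The ADP/ATP carriers Slc25a4 and Slc25a5 exchange cytosolic ADP for ATP made in the matrix, and Slc25a4 is the form typical of heart and muscle. Slc25a4 read 5987 and 6334 in CLA fat at 24 h, against 11453 and 10619.6 in LA fat. Both CLA pools were the lowest of the 12 arrays, and the log2 change was -0.84 ± 0.19 (adjusted p 0.0182), or 1.79-fold lower. At 12 h it read 10916 and 10948 in CLA fat and 13375 and 13634 in LA fat, with a log2 change of -0.30 and an adjusted p of 0.469. At 4 h the CLA pools, at 8144 and 11545, overlapped the LA pools at 8871 and 11040.0. The 24 h call was lost without any 1 of the 4 arrays of that hour (adjusted p up to 0.0914), with 1 common factor (-0.62, adjusted p 0.156) and with the mean over its probe sets (adjusted p 0.0647). Of 9 skeletal muscle markers 0 passed at any hour. All 9 nevertheless had log2 changes above 0 at 4 and 12 h, with medians of 1.87 and 2.88. Many of these values were dim: in the LA pools, 8 and 6 of the 9 markers read under 100 at 4 h, and 7 and 4 at 12 h. In the CLA pools, 6 and 1 did so at 4 h and 0 and 0 at 12 h. At 24 h their median was -0.31, and their summed intensity was 1642 to 1729.7 in CLA pools and 1103 to 2484 in LA pools.

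Slc25a5 changed least among the carriers that passed. At 24 h it read 14123 and 14567 in CLA fat, against 18834 and 19617 in LA fat. The pools were apart, and the log2 change was -0.42 ± 0.12 (adjusted p 0.0429), or 1.34-fold lower. At 12 h the CLA pools read 17103 and 16386 against 16628 and 16000.5 in LA fat. At 4 h they read 21821 and 21489 against 21122 and 21216. The log2 changes were 0.04 and 0.03. The 24 h call passed in only 2 of the 12 fits that left out 1 array, with adjusted p-values up to 0.174. Its log2 change was -0.22 under quantile normalization (adjusted p 0.243) and -0.20 with 1 common factor for all arrays (adjusted p 0.566), and it passed in 4 of 9 such other settings. Its probe set is of a type that can share probes with other transcripts, and Slc25a4 and Slc25a5 are close copies of each other, so signal may be shared between them.

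Slc25a3, which brings phosphate into the matrix for ATP synthesis, did not pass. It read 23059.5 and 24926 in CLA fat at 24 h, against 26931 and 28627 in LA fat, with a log2 change of -0.21 ± 0.15 (adjusted p 0.347). The diets overlapped at 4 h, with CLA pools at 26289 and 24431 and LA pools at 24055 and 25918. They also overlapped at 12 h, with 24142 and 26964 against 25589 and 29946. Its probe set stood at 29.1% to 42.8% of the brightest value on its array, and that of Slc25a5 at 20.8% to 30.4%. The other ATP-Mg carriers that were kept did not pass at 24 h: Slc25a23 had a log2 change of -0.44 ± 0.38 and Slc25a25 of -0.35 ± 0.43, with adjusted p-values of 0.450 and 0.611.

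**Figure D2:**
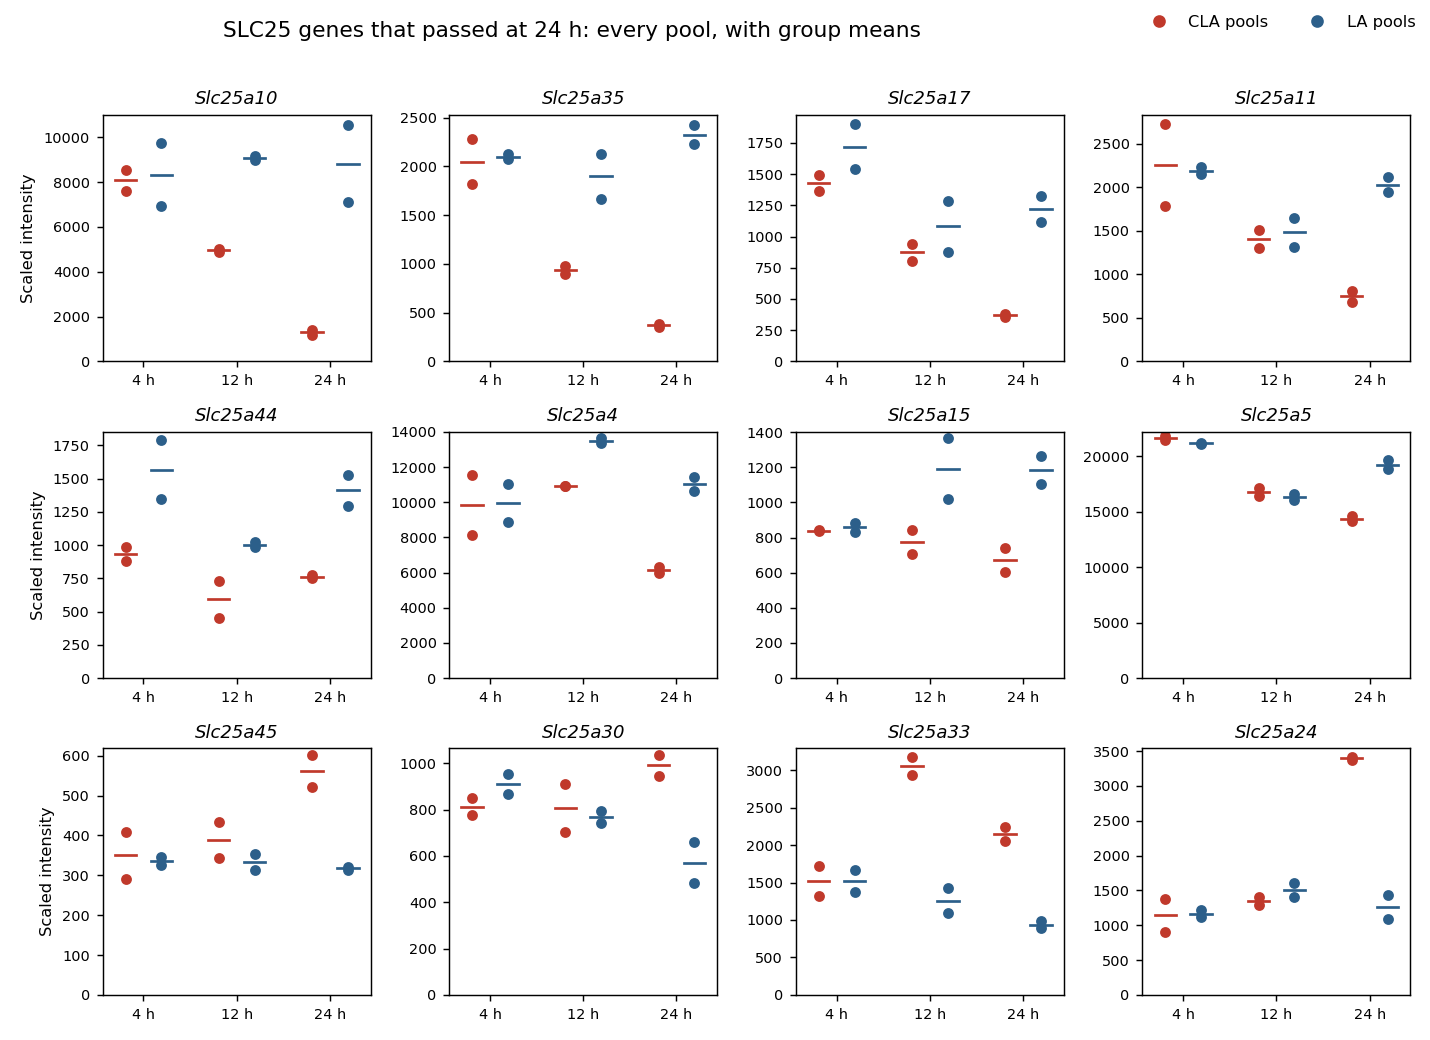
Scaled intensity (y axis, linear, from 0) of the 12 SLC25 genes that passed at 24 h, at 4, 12 and 24 h (x axis), with each point 1 pool of 5 mice and each line the mean of 2 pools. At 24 h the pools of the diets do not overlap in any panel, and Slc25a10 reads 1396 and 1190.2 with CLA against 7114 and 10541 with LA.

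The promoters of the carriers whose 24 h call held in all 12 fits without 1 array are shown where the RefSeq table lists one, because these genes moved apart between the diets in both directions. Each sequence is the 250 bases before the transcription start in the RefSeq table of GRCm38.p6, 5' to 3' on the gene's strand. Capitals mark matches, on either strand, to the CRE core TGACGT, the E-box CACGTG or the AP-1 motif TGANTCA, or to the motif of NRF1. The first 3 belong to genes that fell and the last 2 to genes that rose.
Slc25a10, chr11:120491587-120491836, plus strand: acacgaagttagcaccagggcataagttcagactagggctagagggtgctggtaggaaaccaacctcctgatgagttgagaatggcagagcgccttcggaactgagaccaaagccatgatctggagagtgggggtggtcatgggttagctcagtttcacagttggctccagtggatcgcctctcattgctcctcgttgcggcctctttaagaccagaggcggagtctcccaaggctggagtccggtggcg
Slc25a11, chr11:70647040-70647289, minus strand: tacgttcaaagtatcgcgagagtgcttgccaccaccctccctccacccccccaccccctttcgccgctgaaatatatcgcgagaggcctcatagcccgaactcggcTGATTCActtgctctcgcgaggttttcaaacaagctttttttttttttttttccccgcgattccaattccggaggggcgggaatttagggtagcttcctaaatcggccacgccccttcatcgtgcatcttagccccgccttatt
Slc25a17, chr15:81360766-81361015, minus strand: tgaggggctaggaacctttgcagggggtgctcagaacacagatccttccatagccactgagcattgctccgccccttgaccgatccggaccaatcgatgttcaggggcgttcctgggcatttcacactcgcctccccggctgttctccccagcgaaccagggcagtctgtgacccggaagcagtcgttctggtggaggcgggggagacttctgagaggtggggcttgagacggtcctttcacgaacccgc
Slc25a24, chr3:109122899-109123148, plus strand: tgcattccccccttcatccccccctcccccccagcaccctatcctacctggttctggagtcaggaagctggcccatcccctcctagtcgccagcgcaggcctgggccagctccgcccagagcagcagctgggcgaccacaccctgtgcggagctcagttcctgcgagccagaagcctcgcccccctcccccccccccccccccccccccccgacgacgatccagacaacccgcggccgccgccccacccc
Slc25a33, chr4:149774268-149774517, minus strand: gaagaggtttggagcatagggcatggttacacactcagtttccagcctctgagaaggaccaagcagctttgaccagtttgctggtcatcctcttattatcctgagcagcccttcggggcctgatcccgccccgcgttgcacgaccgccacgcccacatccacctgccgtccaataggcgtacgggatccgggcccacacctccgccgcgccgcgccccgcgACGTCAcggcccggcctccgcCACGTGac

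Slc25a33 held a CRE core, read on the opposite strand, that begins 29 bases before the start, and an E-box that begins 8 bases before it, and these do not overlap. Slc25a11 held an AP-1 match that begins 144 bases before the start. None of the 4 motifs was found in the window of Slc25a10, Slc25a17 or Slc25a24. The table lists promoters for 29 of the 38 carriers and for 10 of the 12 that passed at 24 h, these 10 with 11 promoters. Among those 11 promoters, 1 held the CRE core, 2 the E-box, 1 the AP-1 motif and 0 the NRF1 motif. Of all 32851 promoters in the table, 6.47%, 6.02%, 6.75% and 3.74% held these motifs in the same order. A match describes the letters of the window only.

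Of the 9 amino acid and glutathione carriers kept, 2 fell at 24 h and 7 did not pass. Slc25a15, the ornithine carrier of the urea cycle, read 606 and 740.1 in CLA fat at 24 h, against 1104 and 1264 in LA fat. The log2 change was -0.80 ± 0.19 (adjusted p 0.0209), or 1.75-fold lower. A gap in the same direction at 12 h, with 707 and 845 in CLA fat against 1019 and 1365 in LA fat, had a log2 change of -0.60 and an adjusted p of 0.135. At 4 h the CLA pools read 837 and 841, inside the LA range of 830.2 to 885. The 24 h call was lost without any 1 of the 4 arrays of that hour (adjusted p up to 0.122), with no scaling (-0.52, adjusted p 0.0786), with 1 common factor (-0.59, adjusted p 0.116) and with 24 h fitted alone (adjusted p 0.0724).

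Slc25a44 is a carrier of branched-chain amino acids, described for the brown fat of mice. It read 749.8 and 776 in CLA fat at 24 h, against 1294 and 1528 in LA fat. The log2 change was -0.87 ± 0.24 (adjusted p 0.0355), or 1.83-fold lower. The CLA pools were below the LA pools at all 3 hours: at 4 h they read 987 and 880.1 against 1786 and 1347, and at 12 h 454 and 732 against 1023 and 983. The log2 changes at 4 and 12 h were -0.73 and -0.78, with adjusted p-values of 0.558 and 0.123. The 24 h call passed in 6 of the 12 fits without 1 array and in 5 of 9 other settings, and it was lost with 1 common factor (-0.65, adjusted p 0.180) and with the mean over its probe sets (-0.65, adjusted p 0.101).

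Slc25a12, an aspartate/glutamate carrier of the malate-aspartate shuttle, did not pass at any hour. It read 353 and 290.4 in CLA fat at 24 h, against 244 and 243 in LA fat, with a log2 change of 0.38 ± 0.28 (adjusted p 0.379). Its mean over all kept probe sets gave -0.04. Its CLA pools at 4 h read 173 and 142 against 273 and 152 in LA fat, and at 12 h 255 and 208 against 237 and 169. Its paralog Slc25a13 was not kept, with no array reaching 100. Slc25a22, a mitochondrial glutamate carrier, read 277 and 283 in CLA fat at 12 h, against 457 and 613 in LA fat, with a log2 change of -0.88 ± 0.22 and an adjusted p of 0.0646. At 24 h it had a log2 change of -0.46 (adjusted p 0.170). The glutathione carriers Slc25a39 and Slc25a40 had log2 changes of -0.41 and -0.22 at 24 h, the glycine carrier Slc25a38 of -0.66, the basic amino acid carrier Slc25a29 of 0.16 and the ornithine carrier Slc25a2 of 0.38, and none of these passed. Slc25a2 reached 100 on 2 arrays only.

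Among the 3 carriers that resemble uncoupling proteins, 1 rose at 24 h. Slc25a30 read 946 and 1037 in CLA fat, against 660.0 and 483 in LA fat. The LA pools of 24 h were the lowest of the 12 arrays. Its log2 change was 0.79 ± 0.19 (adjusted p 0.0235), or 1.73-fold higher. At 4 h the CLA pools read 776 and 849.6 against 866 and 955 in LA fat, and at 12 h 702 and 909 against 742 and 792, and neither hour passed. The 24 h call was lost without either CLA array or without replicate 2 of the LA arrays of that hour (adjusted p up to 0.128). Slc25a14 and Slc25a27 had log2 changes of -0.10 and 0.19 at 24 h. At 12 h both CLA pools of Slc25a14 were under 100, at 87.7 and 82.1, against 285 and 163 in LA fat, with a log2 change of -1.20 and an adjusted p of 0.130.

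Slc25a45 rose at 24 h. It read 522 and 603 in CLA fat, against 322 and 314 in LA fat, with a log2 change of 0.79 ± 0.20 (adjusted p 0.0250), or 1.73-fold higher. At 4 h its CLA pools read 291 and 409 around the LA pools at 347 and 326, and at 12 h 344 and 434 against 352 and 312. The 24 h call was lost without any 1 of the 4 arrays of that hour (adjusted p up to 0.143). Slc25a48 lay just outside the threshold: it read 39.0 and 69.1 in CLA fat at 24 h, both under 100, against 163 and 149 in LA fat, with a log2 change of -1.33 ± 0.41 and an adjusted p of 0.0537. Of the others in this mixed group, Slc25a34, Slc25a46, Slc25a47 and Slc25a53 had log2 changes of -0.05, -0.20, -1.20 and -0.40 at 24 h and did not pass. A second kept probe set of Slc25a46 had -0.79 (adjusted p 0.0464 by limma over 22057 probe sets), so the probe sets of this gene disagreed. Slc25a47 reached 100 on 2 arrays only, and both CLA pools of Slc25a53 were under 100 at 24 h.

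The 2 mitoferrins, Slc25a28 and Slc25a37, import iron for haem and iron-sulfur cluster synthesis. Their log2 changes at 24 h were 0.37 ± 0.21 and 0.39 ± 0.21, with pools that did not overlap and adjusted p-values of 0.256 and 0.226. Of the cofactor carriers besides Slc25a17, none passed at any hour. At 24 h the log2 change was -0.54 for Slc25a16, 0.43 for the S-adenosylmethionine carrier Slc25a26, 0.32 for the folate carrier Slc25a32, -0.24 for the CoA carrier Slc25a42 and -0.01 for the NAD carrier Slc25a51. Slc25a26 read 505 and 675 in CLA fat at 12 h, against 73.9 and 347 in LA fat, and its log2 change of 1.73 ± 0.63 had an adjusted p of 0.185. The 5 genes that were not kept, Slc25a13, Slc25a18, Slc25a31, Slc25a41 and Slc25a54, reached 100 on 0 of the 12 arrays. Slc25a31 is an ADP/ATP carrier of the testis and germ cells, and Slc25a18 a glutamate carrier.

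At 12 h, 2 of the 38 carriers passed, Slc25a33 higher and Slc25a35 lower. This was 5.26% of the carriers, beside 4.47% of all genes tested (2.08% higher and 2.38% lower), and the median log2 change was -0.05 beside -0.02. The CLA pools were both above or both below both LA pools for 15 carriers (39.5%), beside 52.7% of all genes. An unadjusted p under 0.05 was met by 8 carriers (21.1%), beside 18.5% of all genes. At 4 h, 0 of the 38 carriers passed, beside 0.0554% of all genes by limma. An unadjusted p under 0.05 was met at 4 h by 2 carriers, beside 6.87% of all genes. They were Slc25a37, at 1072 and 1038 in CLA fat against 733 and 753 in LA fat, with a log2 change of 0.50, and Slc25a44. The CLA and LA pools did not overlap for 13 carriers at 4 h (34.2%), beside 30.5% of all genes.

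The diet effects of the 3 hours were then tested against each other. A moderated F-test of the differences between the 3 effects passed for 3 carriers, Slc25a35, Slc25a10 and Slc25a24, with adjusted p-values of 0.00677, 0.0140 and 0.0452. This was 7.89% of the carriers, beside 3.91% of all genes. For Slc25a10 the diet effect at 24 h was lower than that at 4 h by a log2 difference of -2.71 (adjusted p 0.00569) and than that at 12 h by -1.86 (adjusted p 0.0343). The same differences were -2.56 and -1.60 for Slc25a35, with adjusted p-values of 0.00284 and 0.0257, and 1.48 and 1.58 for Slc25a24, with adjusted p-values of 0.0332 and 0.0475. The difference between 24 and 4 h also passed for Slc25a17 (-1.42, adjusted p 0.0336), Slc25a11 (-1.44, adjusted p 0.0382) and Slc25a33 (1.20, adjusted p 0.0439). The 6 carriers with a passing difference between 24 and 4 h were 15.8% of the carriers, beside 6.81% of all genes. The 3 carriers with a passing difference between 24 and 12 h were 7.89% of the carriers, beside 2.26% of all genes. For Slc25a33 the effects at 24 and 12 h differed by only -0.09. No carrier passed for 12 against 4 h, where 0.0238% of all genes did and where 4 carriers (10.5%) had an unadjusted p under 0.05, beside 9.85% of all genes. The 3 comparisons of effects share pools, so they are not independent of each other.

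Averaged over the 3 hours, 8 carriers passed, 1 higher and 7 lower, or 21.1% beside 15.1% of all genes (7.37% higher and 7.74% lower). The average log2 change was -1.21 for Slc25a10 and for Slc25a35, with adjusted p-values of 0.00139 and 0.000407. It was 0.82 for Slc25a33 (adjusted p 0.00339), -0.74 for Slc25a17 (adjusted p 0.00700), -0.79 for Slc25a44 (adjusted p 0.00799), -0.48 for Slc25a15 (adjusted p 0.0236) and -0.50 for Slc25a11 (adjusted p 0.0381). Slc25a4 was at the threshold, with -0.39 and an adjusted p of 0.04998. Slc25a24 did not pass on average, with 0.41 and an adjusted p of 0.0707. In the LA pools alone, no carrier differed between the 3 hours, and no gene of the 12627 did by limma's F-test. An unadjusted p under 0.05 was met there by 7 carriers, or 18.4% beside 13.6% of all genes, among them Slc25a25, with LA pools at 984 and 721 at 4 h, 375 and 322 at 12 h and 433 and 288 at 24 h.

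Other probe sets of the same genes gave a second reading at 24 h. Of the 12 genes that passed, 6 had 16 further kept probe sets, and all 16 had the sign of the one used. When all 22057 single-gene probe sets were tested together, 7 of the 16 passed. The second probe set of Slc25a10 had a log2 change of -3.03 (adjusted p 0.00103) and that of Slc25a24 of 1.55 (adjusted p 0.0302). The 3 further probe sets of Slc25a4 lay between -0.93 and -0.75, and 2 of them passed. For Slc25a5 the 7 further probe sets lay between -0.72 and -0.17, with 2 passing, and the one used had an adjusted p of 0.0692 in this larger test. Slc25a44 had 1 further probe set at -1.004 (adjusted p 0.0498) and another at -0.06 (adjusted p 0.941), so its probe sets disagreed. For Slc25a30 the further probe sets read 0.24 and 0.89, and neither passed.

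In the authors' deposited table for 24 h, the ratio of Slc25a10 was 0.0961, of Slc25a35 0.151, of Slc25a17 0.245 and of Slc25a11 0.337. The same deposited table of the authors gave ratios of 2.37 for Slc25a24 and 2.03 for Slc25a33. In the authors' deposited table for 12 h, the ratio was 2.22 for Slc25a33, 0.467 for Slc25a35 and 0.534 for Slc25a10. The authors' deposited tables list a p-value under 0.05 for 2, 9 and 16 of the 38 carriers at 4, 12 and 24 h, beside 5.65%, 22.3% and 38.3% of all genes, with no adjustment stated. The headers do not name the diets, and the ratios were read as CLA over LA because they ran with the array differences of the same hour across 6243 genes (r of 0.868, 0.966 and 0.978 at 4, 12 and 24 h). These tables rest on the same arrays.

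**Figure D3:**
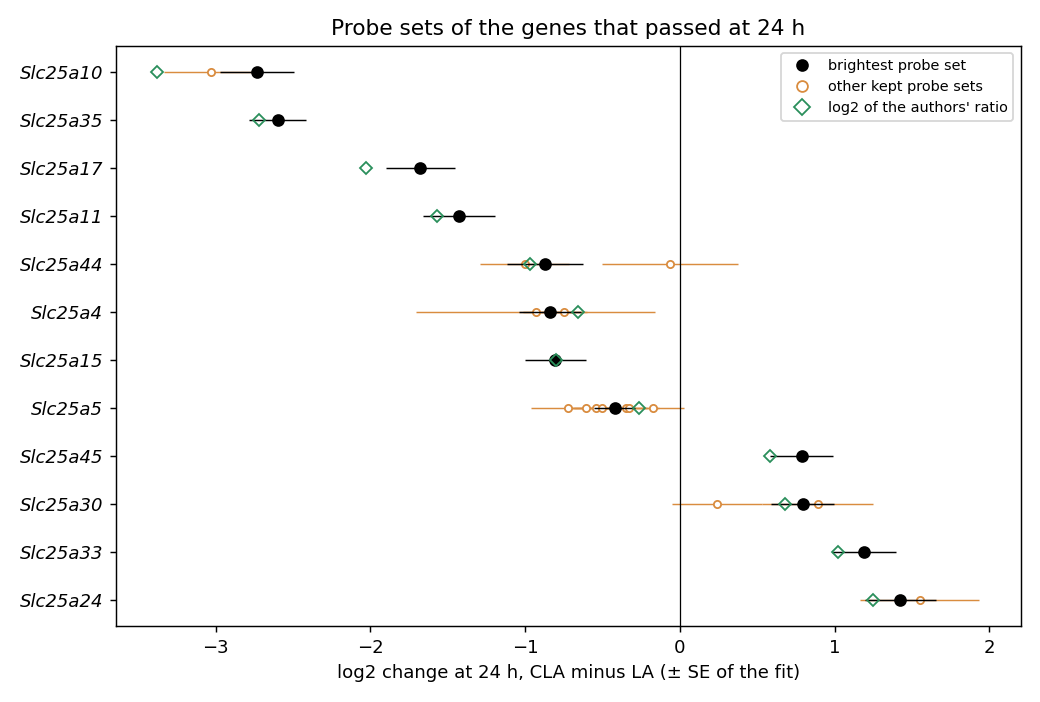
Log2 change at 24 h, CLA minus LA (x axis), of every kept probe set of the 12 SLC25 genes that passed (rows), with standard errors, and log2 of the ratio in the authors' deposited table. For Slc25a10 the probe sets lie at -2.73 and -3.03 and the authors' ratio at -3.38, and all 16 further probe sets fall on the same side of 0 as the one used.

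The carriers were set beside other nuclear genes of mitochondria. The machinery that inserts carriers into the inner membrane comprises the small Tim chaperones, the TIM22 complex and the outer membrane receptors, and 14 of its 16 listed genes were kept. At 24 h, 1 was higher and 2 were lower, beside 10.6% and 10.9% of all genes, and the median log2 change was -0.48, beside -0.23 for the carriers and 0.02 over all genes. Timm8b and Timm13, small Tim chaperones, fell by 0.84 and 0.72 on the log2 scale (adjusted p 0.00803 and 0.0389). Tomm70a, the outer membrane receptor that takes in carrier precursors, rose by 0.78 (adjusted p 0.0352). Timm10 had -0.60 with an adjusted p of 0.0585. With 1 common factor for all arrays, 0 genes of this list passed and its median was -0.26. At 4 and 12 h no gene of this list passed.

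Of 18 kept transporters of mitochondria outside the SLC25 symbols, 1 was higher and 6 were lower at 24 h, with a median of -0.51. The list was set apart by gene symbol only, and it holds the uncoupling proteins Ucp1 and Ucp3. The shares of all genes were 10.6% higher and 10.9% lower. With 1 common factor, 1 transporter was higher and 1 lower, beside 1270 and 507 of 12599 genes, and the median of the transporters was -0.28. Ucp3, an uncoupling protein of muscle and brown fat, had -1.52 (adjusted p 0.000655). Sfxn2 and Mpc1, a sideroflexin and a subunit of the pyruvate carrier, had -1.09 (adjusted p 0.00340) and -0.79 (adjusted p 0.00607), and the sideroflexin Sfxn3 had 1.13 (adjusted p 0.00224). At 12 h 1 was higher and 2 were lower, beside 2.08% and 2.38% of all genes. Ucp3 was among the lower ones, with -0.96 (adjusted p 0.0152). Of 15 regulators and markers of mitochondrial biogenesis, 1 was higher and 4 were lower at 24 h. Beside them stood 10.6% and 10.9% of all genes, and the median of the 15 was -0.18. Cs had -0.88 (adjusted p 0.00548), the coactivator Ppargc1b -1.09 (adjusted p 0.0156) and the nuclear receptor Esrra -1.002 (adjusted p 0.0191). The coactivator Pprc1 had 1.37 (adjusted p 0.00528). Without scaling each array, with 1 common factor, 1 gene of the biogenesis list was higher and 0 lower and its median was 0.03, so the median's sign depended on the scaling. At 12 h 0 biogenesis genes were higher and 1 was lower, beside 2.08% and 2.38% of all genes. This was Ppargc1b, with -1.39 (adjusted p 0.0199).

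Of 78 kept nuclear subunits of oxidative phosphorylation, 45 were lower and 0 higher at 24 h, beside 10.9% and 10.6% of all genes, and their median was -0.62. With 1 common factor for all arrays 10 were lower, beside 507 of 12599 genes, and the median of the subunits was -0.40. Ndufb3, a subunit of complex I, had -1.67 (adjusted p 0.000794). No subunit passed at 4 or 12 h, where the medians were -0.01 and -0.02. The median of the carriers at 24 h thus lay nearer to 0 than those of the subunits and the import machinery. This difference between lists was not tested.

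**Figure D4:**
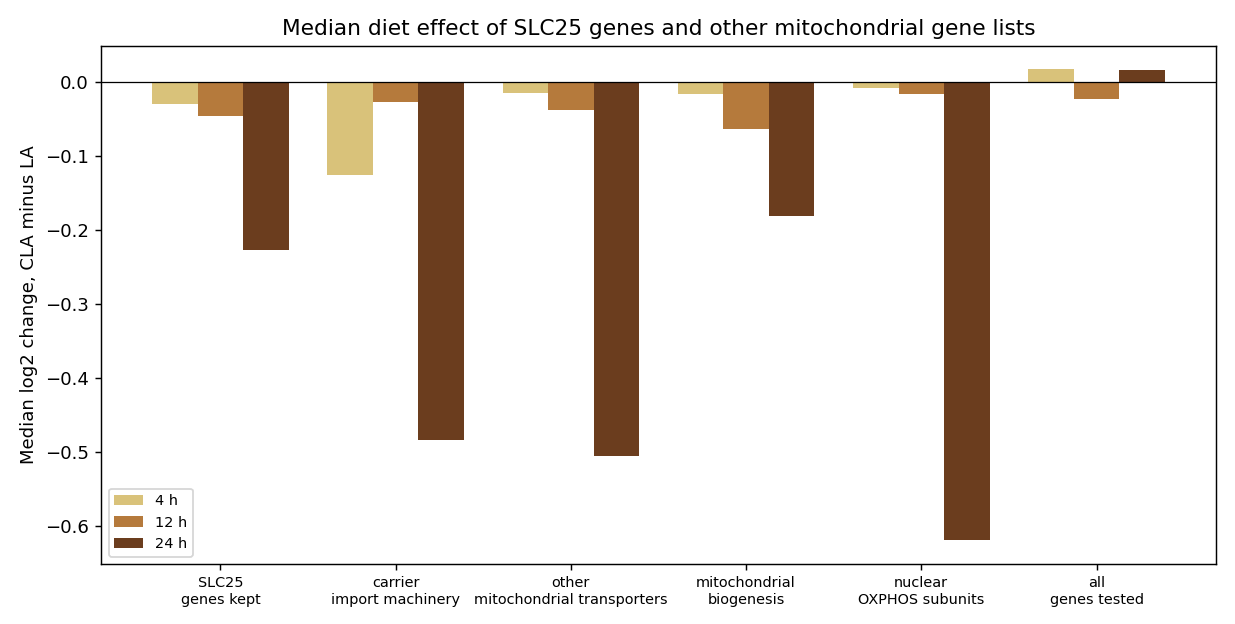
Median log2 change, CLA minus LA (y axis, linear), of the SLC25 genes, of 4 other lists of mitochondrial genes and of all 12627 genes tested (x axis) at 4, 12 and 24 h. At 24 h the carriers lie at -0.23, the import machinery at -0.48, other transporters at -0.51, biogenesis genes at -0.18, oxidative phosphorylation subunits at -0.62 and all genes at 0.02.

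Markers of cell types also differed between the diets at 24 h, where 10.6% of all genes were higher and 10.9% lower. Of 8 adipocyte markers 6 fell, with summed scaled intensities of 163316 to 170487 in CLA pools and 244422 to 270741 in LA pools. Of 8 brown fat markers 5 fell, with sums of 2726 to 2835 in CLA pools and 8362 to 10214 in LA pools, and Ucp1 was at or below 0 on 1 CLA array. Of 14 macrophage markers 7 rose, with sums of 51559.5 to 58245 in CLA pools and 33434 to 39946 in LA pools, and of 5 neutrophil markers 4 rose, with sums of 2793 to 4038 against 610.1 to 753. Of 8 liver markers 4 were lower with CLA, with sums of 2599 to 4506 in CLA pools and 9466 to 15182 in LA pools. These LA sums of 24 h were the highest of the 12 arrays, and the LA pools of 4 and 12 h had 2504 to 2591 and 2763 to 3935. Ahsg was at or below 0 on both CLA arrays of 24 h, and also on both LA arrays of 12 h. Of 10 listed kidney and adrenal markers only 2 were kept, with sums of 3014 to 3897 in CLA pools against 576.0 to 576.2 in LA pools. Star alone rose, with a log2 change of 3.22 (adjusted p 0.000157), while Kap had -0.28 (adjusted p 0.482). Of 8 endothelial markers 1 rose and 1 fell, and of 3 lymphocyte markers 0 passed, with sums of 12079.5 to 12707 and 252 to 352 in CLA pools and of 9063 to 11632 and 264 to 317 in LA pools. With 1 common factor for all arrays, 2 adipocyte and 3 brown fat markers were lower and 5 macrophage markers higher. The counts of neutrophil and liver markers were then 4 and 4. Of 12599 genes under this factor, 507 were lower and 1270 higher. The part of these markers in the changes of the carriers was not tested.

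At 12 h, when Slc25a33 and Slc25a35 passed, 1 brown fat marker of 8 was lower. It was Dio2, with a log2 change of -2.17 (adjusted p 0.0405), and it was at or below 0 on 1 CLA array of that hour. Of the 14 macrophage, 8 adipocyte and 5 neutrophil markers 0 passed, beside 2.08% of all genes higher and 2.38% lower. The adipocyte sums were then 214026 to 232299 in CLA pools and 217273 to 234614 in LA pools, which overlap. Skeletal muscle sums were 4384 to 6509 in CLA fat of 12 h and 1679 to 1812 in LA fat, with 0 of 9 genes passing, and 2082 to 5385 against 1583 to 1705 at 4 h. Liver sums were 4286 to 8311 in CLA pools against 2504 to 2591 in LA pools at 4 h, with a median log2 change of 1.57, and 1711 to 1841 against 2763 to 3935 at 12 h. At 4 h no marker of any of these lists passed.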

How the data were processed

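Total RNA of 12 pools was labelled and hybridised to Affymetrix arrays, per the labels' protocols. The deposited intensity table holds 1 linear value per probe set and array, not scaled to a common mean. Its summarisation method is not given in the sources used here. The authors also deposited a ratio and a p-value per probe set for each hour, under the name Rosetta Resolver, with no test stated.

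From the intensity values, each array was scaled to a mean of 500 after leaving out 2% of values at each end. Tests used log2 of this value plus 16, with negative values taken as 0. Control probe sets (64) were left out. Of 45101 probe sets, 34945 have 1 gene symbol, 932 several and 9160 none in the platform annotation. Those reaching 100 on at least 2 arrays were kept (26016), and the brightest single-gene probe set stood for a gene. A cell-means model of 6 groups was fitted over 12627 genes with limma 3.58.1 in R 4.3.3 (lmFit, eBayes, two-sided, 6 residual degrees of freedom). P-values were adjusted by the Benjamini-Hochberg method over all these genes, with a threshold of 0.05. The number of arrays limits the precision.

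All carriers are named; values on every array are given for those that passed at any hour and for Slc25a3, Slc25a12 and Slc25a20. From other lists, up to 4 genes with the smallest p are named. The members and lists were chosen with earlier results of these data known. Alternatives were quantile normalization, no scaling, 1 common factor for all arrays (added after seeing the data), an offset of 64, a floor of 200 or none, the mean over probe sets, fits to 1 hour alone, the replicate number as a block, and leaving out each array.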

Additional observations from a re-analysis of the deposited data

Results flagged for a closer look

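A group of 3 carriers had a diet effect that differed between 4, 12 and 24 h by the moderated F-test over all arrays. Slc25a35 (adjusted p 0.00677) had log2 changes, CLA minus LA, of -0.04, -0.996 and -2.60 at 4, 12 and 24 h. Slc25a10 (adjusted p 0.0140) had -0.03, -0.87 and -2.73. Slc25a24 (adjusted p 0.0452) had -0.06, -0.15 and 1.42. For these 3 carriers the CLA and LA pools overlapped at 4 h and were apart at 24 h, and at 12 h they were apart for Slc25a35 and Slc25a10 but not for Slc25a24. The F-test missed the threshold for Slc25a17, Slc25a33 and Slc25a11, with adjusted p-values of 0.0514, 0.0587 and 0.0597.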

How the results depend on the processing

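The 24 h calls of Slc25a10, Slc25a11, Slc25a17, Slc25a24, Slc25a33 and Slc25a35 passed in all 12 fits without 1 array and in all 9 other settings. The other 6 calls of 24 h and both calls of 12 h were lost in at least 1. Over fits without 1 array, the number of carriers passing was 0 to 0 at 4 h, 0 to 3 at 12 h, 6 to 13 at 24 h, 5 to 10 on average over the hours, 1 to 7 for the F-test between hours and 0 to 0 for the LA pools over time. At 24 h it was 6, 6, 7 and 6 without CLA replicate 1, CLA replicate 2, LA replicate 1 and LA replicate 2 of that hour, and at 12 h it was 0 without any array of that hour. The F-test gave 7 without CLA replicate 2 of 4 h and 1 without either CLA array of 24 h. The average gave 5 without either LA array of 4 h, CLA replicate 1 of 24 h or LA replicate 2 of 24 h. With no scaling, fewer genes reached the floor, 21 carriers among 5901 genes. Of these 21 carriers, 5 passed at 12 h, 6 in the F-test and 3 in the LA pools over time. Of the 5901 genes, 746, 1443 and 835 passed in the same order. With 1 common factor, 1 of 37 carriers passed at 12 h and 1 in the F-test, beside 192 and 168 of 12599 genes. The F-test gave 6 carriers with an offset of 64, beside 735 genes in all, where the main fit gave 3 beside 494. It gave 6 with a floor of 200, and that floor gave 4 at 12 h. Where a carrier count stands here without an all-gene count, it does not show a change particular to the carriers. Fitted alone, 12 h gave 0 and 24 h gave 7, with fewer arrays for the spread. Slc25a3 at 24 h reversed to 0.0101, 0.0103 and 0.0103 under quantile normalization, no scaling and 1 common factor, and Slc25a12 to -0.0426 with the mean over probe sets, and neither passed. The cause of these changes was not tested for any setting. Of 355 carrier values under alternatives, 292 kept their direction and side of the threshold, 58 lost the call, 1 gained it and 4 reversed. At 24 h the all-gene median was 0.23 with 1 common factor and 0.02 with scaling. With the replicate block, 0, 2, 12, 8, 4 and 0 carriers passed in the order above. Pools with the same number deviated together weakly (r -0.0903 to 0.0977 across 12627 genes). The Actb 3' over 5' signal was nevertheless higher in replicate 2 than in replicate 1 of each of the 6 groups. Whether the number marks a shared step of handling was not tested, and the main fit did not pair the pools.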
